A study of Mus musculus with 2 samples.

Results

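A set of 9 genes for the movement of water, potassium and bicarbonate across glial membranes was described in cortex of mice at postnatal day 5. They were chosen by symbol, and all 9 were found among the 32285 genes of the tables: the water channel genes Aqp4 and Aqp9, the potassium channel gene Kcnj10, the bicarbonate transporter genes Slc4a4 and Slc4a2, the carbonic anhydrase genes Car2, Car12 and Car14, and the cation channel gene Trpv4. The study's title links mutation of Katnal2, which encodes a relative of the microtubule-severing protein katanin, to hydrocephalus, the enlargement of the fluid-filled brain ventricles. Cortex, for which the labels also name frozen storage, was dissociated with enzymes, and cells were sorted by fluorescence and sequenced as 1 droplet library from wild-type animals (WT) and 1 from Katnal2 mutant animals (Mut). The sources used here do not give the mutated stretch of Katnal2, the strain or the gate of the sort. Neither library can be split into animals, so each genotype is 1 sample, no test between genotypes was possible, and the intervals below cover counting error only.

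Astrocytes take up the potassium and part of the bicarbonate that neuronal activity moves into the extracellular space, and water follows through aquaporin channels that gather on the endfeet around vessels. Carbonic anhydrases convert carbon dioxide and water to bicarbonate and protons and so feed the bicarbonate transporters. The epithelium of the choroid plexus, which secretes cerebrospinal fluid, uses transporters and enzymes of the same families.

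After filtering, 10052 WT and 9286 Mut cells remained, with a median of 6211 and 7322 unique molecular identifiers (UMIs, each standing for 1 captured RNA molecule). Levels are UMIs per 1000000 UMIs of a cell class (CPM). Cells were grouped by clusters and named "-like" after marker genes, none of which is among the 9. Astrocyte-like cells were the largest class (3081 WT and 3091 Mut cells). Other astroglia were split into dividing (799 and 718), mixed (116 and 136, between astrocyte and radial glia markers) and radial glia-like cells (482 and 380). The mixed cluster was led by Ung and Hells, with the DNA replication genes Mcm3 and Mcm4 also among its leading genes. Its score on the markers of division was 0.0772, under the 0.5 asked of dividing cells. Whether the mixed cells were cycling was not tested. Animals of both sexes were pooled in each library, and of the cells whose sex could be read from Xist and Y-linked UMIs, 47.1% of the WT and 65.3% of the Mut cells were female. RNA free in the suspension, read from nearly empty barcodes, held Aqp4 at 241 CPM in WT and 307 in Mut. The level that this free RNA would give in a class is set beside several low values. Only 32 barcodes were kept in both libraries.

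The windows of 4 promoters are shown first, because Kcnj10 and Slc4a4 had the largest Mut to WT ratios of the measured members in astrocyte-like cells, whereas Trpv4 was almost without UMIs there. Windows of RefSeq on GRCm38.p6 run from 250 bases before to 50 after a transcription start. They were matched for 7 of the 9 genes with 10 starts in all, and not for Aqp4 and Car2. Capitals mark the GC box with its letters GGGCGG, the box spelled CCAAT, the core promoter motif TATAAA, the motif of SOX factors ACAAAG and the nuclear factor I motif TTGGCA, each on either strand. No marked match overlapped another in these 4 windows.
Kcnj10 (chr1:172340960-172341259, plus strand): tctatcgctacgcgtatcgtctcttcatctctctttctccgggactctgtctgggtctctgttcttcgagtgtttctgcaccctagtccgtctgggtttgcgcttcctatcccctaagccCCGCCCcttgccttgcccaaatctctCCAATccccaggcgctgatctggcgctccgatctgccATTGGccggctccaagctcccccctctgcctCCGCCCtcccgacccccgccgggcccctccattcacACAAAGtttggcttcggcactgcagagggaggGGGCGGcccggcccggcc
Slc4a4 start 1 (chr5:88887010-88887309, plus strand): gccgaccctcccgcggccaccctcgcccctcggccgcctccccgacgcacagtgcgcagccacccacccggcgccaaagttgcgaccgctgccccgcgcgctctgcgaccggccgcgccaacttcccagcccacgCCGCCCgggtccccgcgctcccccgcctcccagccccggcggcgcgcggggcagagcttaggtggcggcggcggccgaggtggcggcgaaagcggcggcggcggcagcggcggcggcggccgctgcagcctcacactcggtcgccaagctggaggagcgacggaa
Slc4a4 start 2 (chr5:89027716-89028015, plus strand): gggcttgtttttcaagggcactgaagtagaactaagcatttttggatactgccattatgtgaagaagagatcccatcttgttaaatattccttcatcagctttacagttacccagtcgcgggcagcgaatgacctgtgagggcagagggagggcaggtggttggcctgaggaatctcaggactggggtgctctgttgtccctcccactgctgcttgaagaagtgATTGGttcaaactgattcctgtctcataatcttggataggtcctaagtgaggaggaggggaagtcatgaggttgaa
Trpv4 (chr5:114658372-114658671, minus strand): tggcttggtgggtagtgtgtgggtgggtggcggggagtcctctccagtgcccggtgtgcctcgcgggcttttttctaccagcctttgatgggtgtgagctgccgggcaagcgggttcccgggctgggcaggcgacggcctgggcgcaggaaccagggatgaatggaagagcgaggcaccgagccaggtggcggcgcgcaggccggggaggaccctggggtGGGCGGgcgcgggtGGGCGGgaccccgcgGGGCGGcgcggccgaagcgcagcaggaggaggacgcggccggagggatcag

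The starts of Slc4a4 differed most in base composition. The window at the upstream start was 80% G and C, a content that 0.94% of 32817 mouse promoter windows exceeded, and its ratio of observed to expected CpG was 1.06. The window at the start inside the gene was 48.3% G and C, with a CpG ratio of 0.18. UMI counts per gene do not separate transcripts of these starts. The Kcnj10 window held 3 GC boxes, 2 CCAAT boxes and 1 ACAAAG, and the Trpv4 window held 3 GC boxes. GC boxes occur in 35.6% of all windows of this length, CCAAT in 37.4%, ACAAAG in 18.7% and TTGGCA in 14.1%. TATAAA, found in 13.6% of all windows, was in none of the 10 member windows. The E-box CANNTG was also searched and is not marked, since 72.3% of all windows hold it.

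The 9 genes differed in how far their UMIs lay in astroglia. Of the Aqp4 UMIs, 74.7% in WT and 78.1% in Mut lay in astrocyte-like cells, and another 23.1% and 20.2% in dividing, mixed and radial glia-like cells. Slc4a4, Car2, Kcnj10 and Aqp9 also lay mainly in astrocyte-like cells, with 61.6% to 76.0% of their UMIs. Kcnj10 had a further 10.0% (WT) and 8.87% (Mut) in the oligodendrocyte lineage. Car2 had 6.92% and 7.19% in vascular and fibroblast cells. Slc4a2 had 49.1% and 46.2% in astrocyte-like cells. By contrast, Car12, Car14 and Trpv4 gave 28 to 142 UMIs per library, and most of these lay outside astrocyte-like cells. Car14 was mainly vascular or in unnamed clusters. In WT, Car12 had 28.6% of its 28 UMIs in astrocyte-like, 14.3% in other astroglial and 32.1% in oligodendrocyte lineage cells. In Mut, 57.8% of its 64 UMIs lay in ependymal and choroid plexus cells. Trpv4 was split between the oligodendrocyte lineage (48.7% of its 39 WT and 15.3% of its 85 Mut UMIs) and immune cells (41.0% and 70.6%). The word glial thus holds only in part for Car14, for Trpv4 and, in the Mut library, for Car12.

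**Figure D1:**
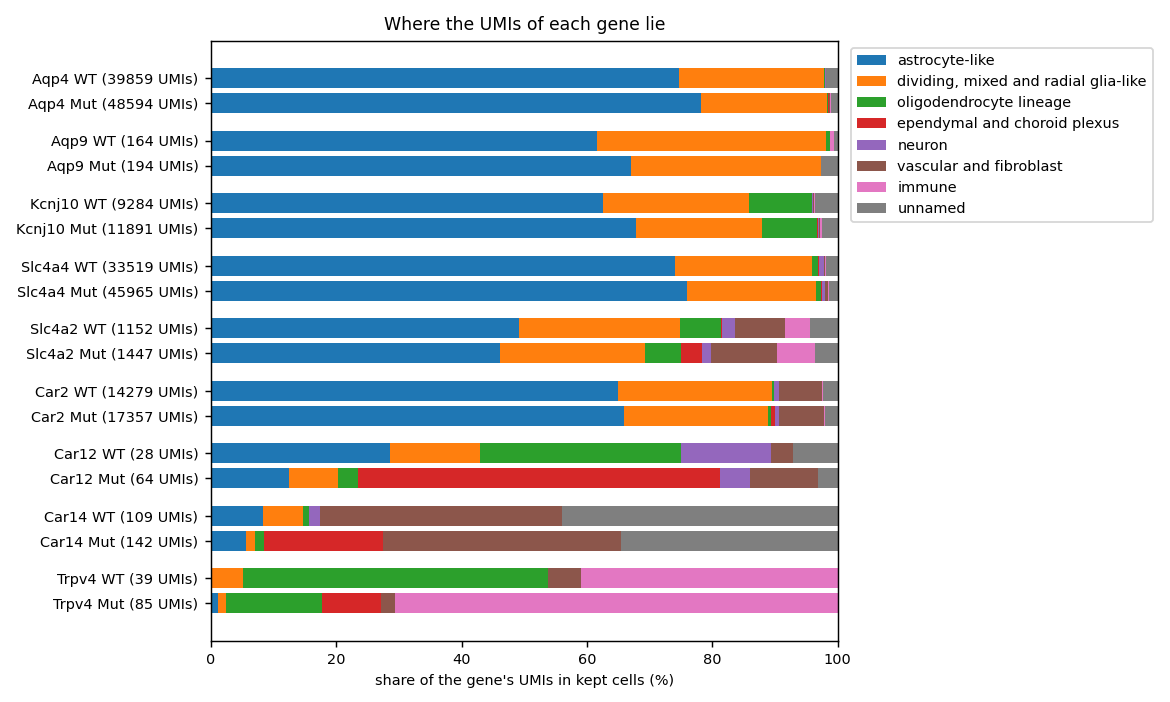
Share of each gene's UMIs (x axis, percent) by group of cell classes (colours), with 1 bar for each gene and library and the UMI total in brackets. Aqp4, Aqp9, Kcnj10, Slc4a4 and Car2 lie mainly in astrocyte-like cells, and Trpv4, Car12 and Car14 mainly elsewhere.

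Aqp4, the main water channel of astrocytes, was highest in astrocyte-like cells with 1153 CPM (WT) and 1276 CPM (Mut). Levels were 1058 and 1062 CPM in mixed astroglia-like cells, 772 and 779 in dividing astroglia-like and 251 and 339 in radial glia-like cells. The intervals of these 4 neighbouring classes did not overlap in either library. Mixed cells stood above astrocyte-like cells in both libraries with at least 2000 UMIs per cell or at most 10% mitochondrial UMIs, and in WT with finer clustering. At least 1 Aqp4 UMI was seen in 95.1% of WT and 97.3% of Mut astrocyte-like cells, at median depths of 8320 and 9483 UMIs. In microglia-like cells, which should lack the channel, the share was 2.78% and 4.61%, at median depths of 6026 and 6872 UMIs. With each cell thinned to 2000 UMIs, the astrocyte-like shares were 78.8% and 81.6%, and those of microglia-like cells 1.27% and 1.32%. In microglia-like cells the level was 4.71 and 6.16 CPM, at or below the 4.90 and 8.73 CPM that free RNA would give. Aqp4 of oligodendrocyte precursor-like cells, at 5.37 and 8.78 CPM, was likewise below its free RNA level of 9.12 and 16.3 CPM.

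Aqp9, a channel that passes water, glycerol and other small solutes, was rare but kept to astroglia. It had 164 UMIs in WT and 194 in Mut, of which 161 and 189 lay in the 4 astroglial classes. Levels were 3.91 and 4.37 CPM in astrocyte-like, 4.59 and 4.93 in dividing and 5.78 and 6.17 in radial glia-like cells, the last from 12 and 11 UMIs. The intervals of these 3 classes overlapped in both libraries, so their order is not resolved. No Aqp9 UMI was seen in 395 WT and 304 Mut microglia-like cells or in 1251 and 802 inhibitory neuron-like cells. For inhibitory neuron-like cells 3 counts, the limit that a count of 0 allows, would be 0.650 CPM in WT and 0.882 in Mut.

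Kcnj10, which encodes the inward rectifier Kir4.1 through which glia buffer potassium, was high in astroglia and well above free RNA in the oligodendrocyte lineage. The gene lies at chr1:172341210-172374085 on the plus strand of GRCm38. Its level in astrocyte-like cells was 225 CPM (WT) and 271 CPM (Mut), and 75.7% and 84.3% of these cells had a UMI (34.6% and 39.7% after thinning). Mixed astroglia-like cells had 187 CPM in both libraries, and dividing astroglia-like cells 172 and 189, with intervals that overlapped. Radial glia-like cells had 134 and 159 CPM. Oligodendrocyte-like cells stood at 87.3 and 103 CPM and their precursors at 76.7 and 89.9, with overlapping intervals and far above free RNA levels of 2.05 to 5.01 CPM. The few ependymal cell-like cells held 35.9 and 53.2 CPM, and microglia-like cells 5.49 and 10.1, against 1.64 and 2.68 from free RNA.

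Slc4a4, which encodes the electrogenic sodium bicarbonate cotransporter NBCe1, followed Aqp4 in its order of classes. The gene spans chr5:88886818-89239653 on the plus strand of GRCm38. Astrocyte-like cells held 962 (WT) and 1174 CPM (Mut), and the levels were 848 and 1086 in mixed, 605 and 735 in dividing and 238 and 337 in radial glia-like cells. Below astroglia, Slc4a4 was still above free RNA in inhibitory neuron-like cells (58.9 and 71.1 CPM, against 8.85 and 10.2 from free RNA) and in oligodendrocyte precursor-like cells (28.7 and 36.2, against 7.86 and 14.2). In fibroblast-like cells Slc4a4 was 60.7 CPM (39.3 to 89.6) in 48 WT cells and 160 CPM (138 to 184) in 135 Mut cells, with intervals that did not overlap. A fibroblast cluster led by Mgp, with 28 Mut and no WT cells, held 324 CPM, and in the fibroblast cluster found in both libraries the intervals overlapped, at 60.7 and 91.3 CPM (72.2 to 114 in Mut).

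Slc4a2, which encodes the anion exchanger AE2, was low and broad. Levels were 26.6 and 24.8 CPM in mixed astroglia-like, 23.1 and 28.0 in radial glia-like, 20.5 and 28.0 in border-associated macrophage-like, 22.6 and 25.7 in dividing astroglia-like, 21.1 and 26.4 in mural cell-like and 21.9 and 22.5 in astrocyte-like cells. Each of these 6 classes overlapped its neighbour in that order in both libraries. That order covers classes with at least 50 cells in both libraries and leaves out fibroblast-like cells (48 in WT). With doublets kept, fibroblast-like cells led the classes of that size in both libraries. Levels were lower in oligodendrocyte precursor-like cells (6.21 and 7.16 CPM) and inhibitory neuron-like cells (4.33 and 4.41 CPM). The highest level was that of 9 choroid plexus epithelium-like cells of the Mut library, at 251 CPM (179 to 342).

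Car2, the main cytosolic carbonic anhydrase, joined astroglia and vessels. It stood at 359 and 384 CPM in astrocyte-like, 386 and 406 in mixed and 309 and 339 in dividing astroglia-like cells. Its levels were 216 (WT) and 204 CPM (Mut) in endothelial cell-like and 133 and 152 CPM in mural cell-like cells, against at most 8.66 CPM from free RNA. Radial glia-like cells were much lower than the other astroglia, at 33.3 and 48.8 CPM. Car2 is also known from myelinating oligodendrocytes, but the oligodendrocyte-like cells of this age had 5.04 and 4.58 CPM, close to or below the free RNA level of 5.0 and 7.45. Oligodendrocyte precursor-like cells had 4.82 and 7.07 CPM, below theirs.

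Car12 and Car14, membrane-bound carbonic anhydrases that work outside the cell, were nearly absent from astrocyte-like cells (0.310 and 0.269 CPM for Car12, 0.349 and 0.269 for Car14). Of 64 Car12 UMIs in the Mut library, 37 came from 6 of the 9 choroid plexus epithelium-like cells. These cells held Car12 at 232 CPM (164 to 320), Car14 at 170 CPM (112 to 247) and Car2 at 597 CPM (483 to 729). The WT library held no such cell, and its Car12 total was 28 UMIs. Endothelial Car14 was 10.6 (WT) and 7.20 CPM (Mut), from 41 and 37 UMIs. An unnamed cluster led by Helt and Dll1 held Car14 at 9.04 CPM (25 UMIs in 400 cells) in WT and 15.2 CPM (37 UMIs in 306 cells) in Mut. A further unnamed cluster led by replication histone genes had 23 and 12 Car14 UMIs. Free RNA would give at most 0.0982 CPM of Car14 in any named class. The Mgp-led fibroblast cluster of the Mut library had 13 Car14 UMIs in 28 cells (36.3 CPM, 19.3 to 62.1).

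Trpv4, a cation channel opened by swelling, warmth and stretch, had its highest level among the larger classes in border-associated macrophage-like cells, which line meninges and perivascular spaces. These cells held 25.3 CPM in WT (14.4 to 41.0, 16 UMIs in 15 of 92 cells) and 30.9 in the Mut library (23.1 to 40.4, 53 UMIs in 49 of 220 cells). Microglia-like cells gave no UMI in WT and 7 in Mut, and oligodendrocyte-like cells 6 and none. In astrocyte-like cells there was no UMI in 3081 WT cells, which allows at most 0.116 CPM at 3 counts, and 1 UMI in 3091 Mut cells. Oligodendrocyte precursor-like cells had 13 UMIs in each library (1.20 and 1.24 CPM). The choroid plexus epithelium-like cells of the Mut library had 8 UMIs in 5 of 9 cells (50.2 CPM, 21.7 to 99.0).

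**Figure D2:**
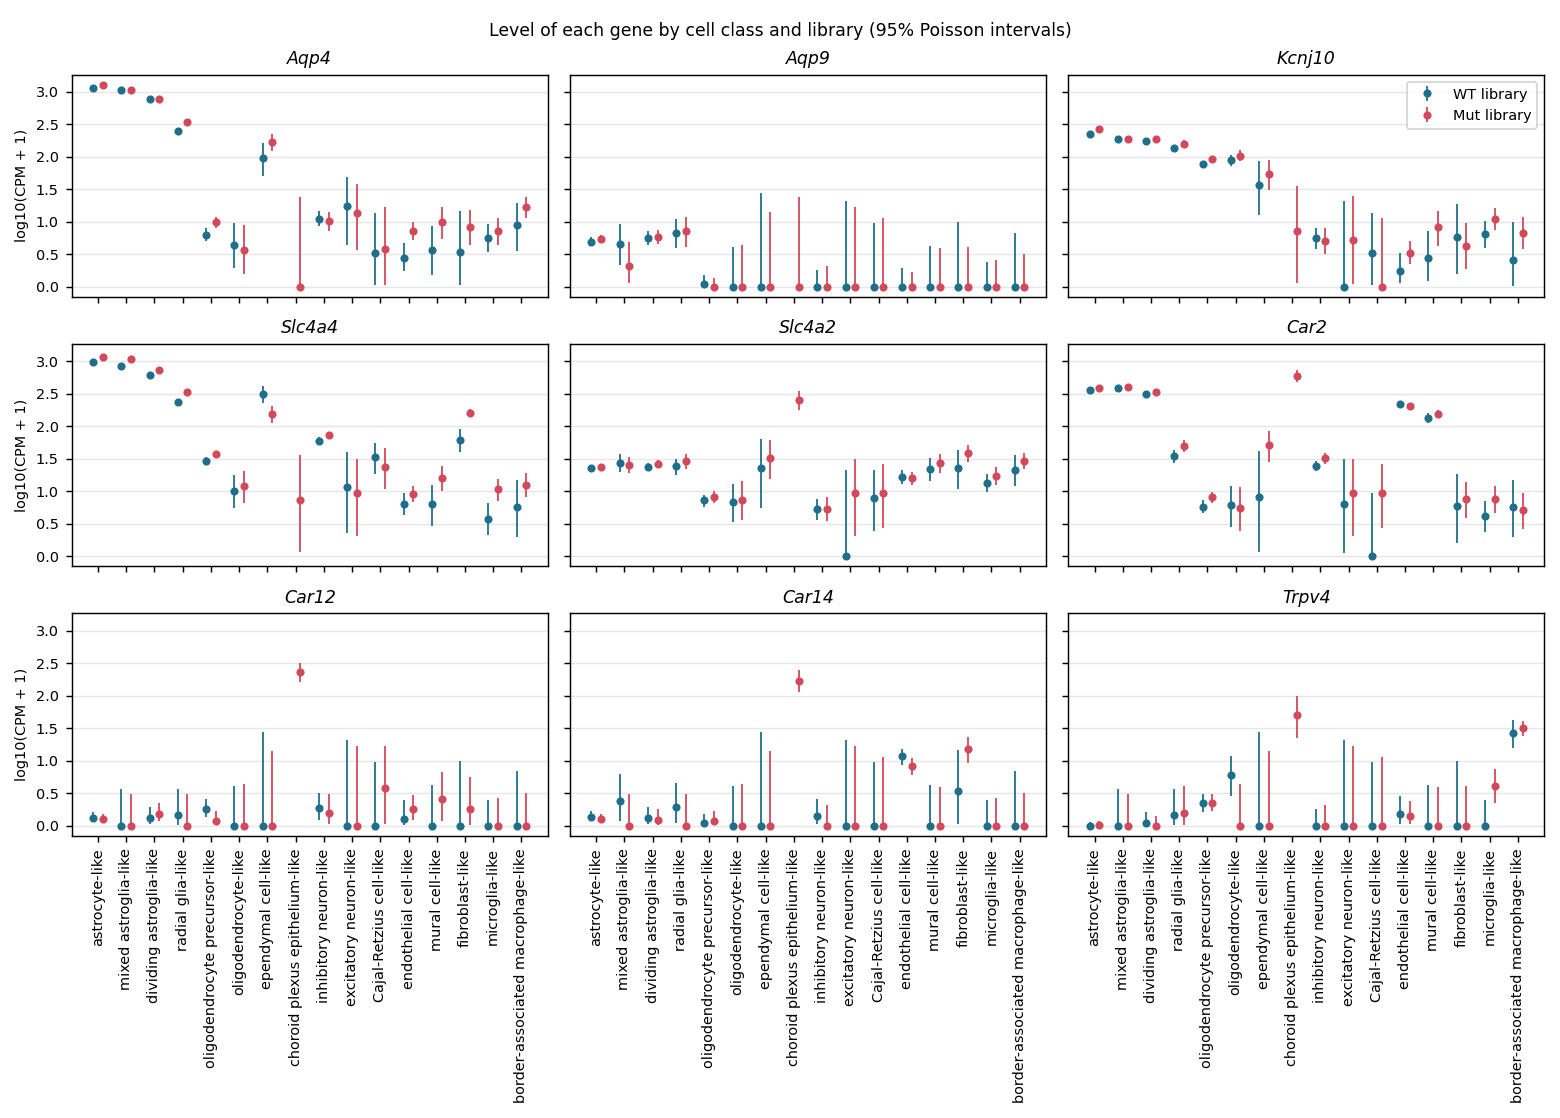
Level of each gene as log10(CPM + 1) (y axes) in each cell class (x axes), WT in blue and Mut in red, with bars for the 95% Poisson interval. Aqp4 and Slc4a4 step down from astrocyte-like through mixed and dividing to radial glia-like cells, and Car12 and Car14 peak in the 9 choroid plexus epithelium-like cells of the Mut library.

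Genes with the most similar distribution were sought over 12 classes in both libraries (24 points, Pearson correlation of log2(CPM + 1), among genes with at least 100 CPM in a class). The points share libraries and depth, so these correlations are descriptions. Aqp4 was most like Aldh1l1 (0.992), Tst (0.984) and Slc25a18 (0.976). Slc4a4 was most like Ncan (0.968), Trim9 and Fgfbp3 (both 0.967). Kcnj10 was most like Idi1 (0.962), an enzyme of sterol synthesis, followed by Tkt (0.951) and Insig1 (0.9501). The genes most like Car2 were Id3 (0.932), Id1 (0.903) and Rab13 (0.893). Slc14a2, a urea transporter gene, led for Aqp9 (0.956), with Gm11627 and Cbs (both 0.949). For Slc4a2 they were Fos (0.916), Slc9a3r1 (0.904) and Prdx1 (0.902). Among the members themselves the closest pair was Aqp4 and Slc4a4 (0.94), while Aqp4 and Kcnj10 reached 0.77.

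Mut was then set against WT within astrocyte-like cells. Slc4a4 was 1.22 times as high in Mut (interval 1.20 to 1.24) and Kcnj10 1.20 times (1.16 to 1.24). Aqp4 had a ratio of 1.11 (1.09 to 1.12), and Car2 1.07 (1.04 to 1.10). For Aqp9 (1.12, 0.854 to 1.46) and Slc4a2 (1.02, 0.914 to 1.15) the intervals included 1. All 6 members with at least 30 UMIs had ratios above 1, and none was at least 25% higher or 20% lower in Mut, the fold used below. Over all 13709 genes measured in these cells, 9.85% were past that fold upward, 4.99% downward, and 63.5% had a ratio above 1. A larger ratio than that of Slc4a4 was seen in 12% of genes, and a larger one than that of Kcnj10 in 13.5%. The median log2 ratio was 0.15 over the 6 members and 0.05 over all genes. Haemoglobin and other erythrocyte marker RNA moved with genotype in these cells, at 105 CPM in WT and 342 in Mut for the list of 5. Lists of border-associated macrophages (2.60 and 6.52 CPM, 8 of 8 higher in Mut), fibroblasts (15.9 and 22.2, 8 of 8), endothelial cells (14.7 and 19.8, 9 of 9) and choroid plexus (8.604 and 17.8, 6 of 9) were also higher, as was the sum of astrocyte markers (6782 and 7267, 8 of 12). Oligodendrocyte precursor markers were higher as well (496 and 563 CPM, 10 of 10). The lists of radial glia (4440 and 4314 CPM, 8 of 12 higher) and microglia (71.0 and 66.9, 3 of 8) summed lower. The part of these lists in the ratios was not tested.

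**Figure D3:**
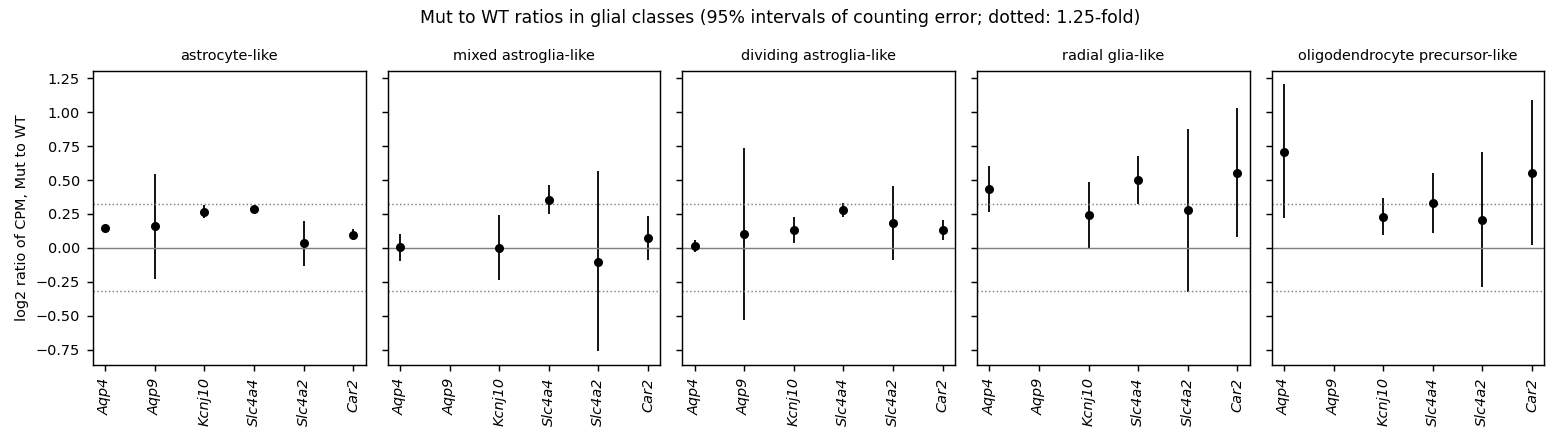
Mut to WT ratio of CPM on a log2 scale (y axes) for members with at least 30 UMIs in 5 glial classes (panels), with bars for the 95% interval of counting error. Dotted lines mark 25% higher and 20% lower, and Slc4a4 lies above 0 in every panel.

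Slc4a4 was higher in Mut in each of the 5 glial classes in which it was measured, although the ratio in oligodendrocyte precursor-like cells was 1.05 with free RNA taken off. Its ratio was 1.21 in dividing (1.17 to 1.26), 1.28 in mixed (1.19 to 1.38) and 1.41 in radial glia-like cells (1.254 to 1.60). In dividing astroglia-like cells none of 6 members passed the fold, where 11.5% of all genes were past it upward and 5.50% downward. Aqp4 had a ratio of 1.009 there and 1.003 in mixed cells, where Slc4a4 was the only one of 5 members past the fold (background 17.2% upward and 11.5% downward). In radial glia-like cells Aqp4 (1.35), Slc4a4 and Car2 (1.47, from 69 and 87 UMIs) were past the fold, 3 of 5 members, against 15.7% of all genes upward and 12% downward. The same 12 astrocyte markers summed to 4694 CPM in WT and 5864 in Mut radial glia-like cells, with 11 of them higher in Mut, and erythrocyte markers to 127 and 2709 CPM. The 12 radial glia markers summed to 4453 and 4452 CPM, with 8 of them higher in Mut. The 10 ependymal cell markers summed to 157 and 98.1 CPM, with 1 of them higher. The part of these lists in the ratios was not tested. The leading gene of this cluster by fold was Ttr, a defining gene of choroid plexus epithelium. That fold was read over 482 WT and 385 Mut cells, before choroid plexus epithelium-like cells were set apart. In the 482 and 380 cells of the class, the 9 choroid plexus markers summed to 42.4 (WT) and 51.0 CPM (Mut). Of these markers, 6 and 4 were at 0. With coarser or finer clustering the class had other borders, and the ratios fell to 1.02 and 1.07 for Aqp4, to 1.23 and 1.22 for Slc4a4 and to 1.12 and 1.11 for Car2, none of them past the fold. When single barcodes were named by their markers, Aqp4 had 1.17, Slc4a4 1.53 and Car2 1.36. By sex, Slc4a4 had 1.99 in female and 1.27 in male cells, and Car2 1.11 and 3.34, the last from 12 and 22 UMIs. With doublets kept, at least 2000 UMIs per cell or at most 10% mitochondrial UMIs, no cluster was named radial glia-like.

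Oligodendrocyte precursor-like cells had 3 of 5 members past the fold upward (background 8.98% upward and 4.89% downward), which were Aqp4 (1.64), Car2 (1.47) and Slc4a4 (1.26, 1.08 to 1.47). For Aqp4 and Car2 both levels lay below those of free RNA, which also held more Aqp4 in Mut. With free RNA taken off, Slc4a4 was 20.9 and 22.0 CPM, a ratio of 1.05 that is not past the fold. The same step left negative levels for Aqp4 (-3.75 and -7.52 CPM) and Car2 (-2.63 and -5.08 CPM), so it took off too much of these 2. The free share used was 3.78% in WT and 5.31% in Mut. Whether too much Slc4a4 was also taken off was not tested. Kcnj10, which these cells express well above free RNA, had a ratio of 1.17 (1.07 to 1.29) and 1.15 with free RNA taken off, and in oligodendrocyte-like cells, where it was the only member measured and not past the fold (background 19.0% upward and 13.6% downward), 1.18 (0.900 to 1.56).

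The classes that follow lie outside astroglia and the oligodendrocyte lineage. Endothelial cell-like cells had 2 of 5 members past the fold upward and 1 downward, against 13.4% and 9.24% of all genes. Aqp4 of endothelial cell-like cells had a ratio of 3.44 from 7 and 32 UMIs, at 1.81 and 6.23 CPM against 4.90 and 11.6 from free RNA. Endothelial Car2, at 834 and 1050 UMIs, had a ratio of 0.948 (0.864 to 1.04). Endothelial Car14 was past the fold downward (0.679), but its interval of 0.423 to 1.09 included 1, and it was 1.42 in female (8 and 25 UMIs) and 0.551 in male cells (22 and 10 UMIs). Endothelial Slc4a4 was past it upward at 1.51 (0.872 to 2.68) from 21 and 42 UMIs, with 2.99 in female and 0.707 in male cells. Its levels were 5.43 and 8.18 CPM, the Mut level being below what free RNA would give. In Mut, free RNA held Slc4a4 at 268 CPM and made up 3.78% of endothelial UMIs. Border-associated macrophage-like cells had 2 of 3 members past it upward (background 24.2%, and 13.7% downward), Aqp4 from 5 and 27 UMIs (7.89 and 15.7 CPM, against 11.1 and 9.68 from free RNA) and Slc4a2 from 13 and 48, both with intervals that include 1, and Trpv4 stayed within it at 1.22 (0.689 to 2.29). In microglia-like cells both measured members, Kcnj10 and Slc4a2, were past it upward (background 23.7%, and 8.21% downward), with intervals that include 1. Of 5 members in inhibitory neuron-like cells Car2 was past it (1.32, background 18.2%, and 8.07% downward), and of 2 in mural cell-like cells Slc4a2 (1.252, background 22.5%, and 10.6% downward), and both intervals reach 1.

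Astrocyte-like cells comprised 5 clusters, and Aqp4 and Slc4a4 ranked them differently. A cluster led by Gfap and Serpinf1 had the highest Aqp4, at 1892 CPM in WT and 2071 in Mut, and the lowest Slc4a4, at 663 and 925 CPM. A cluster led by Crym and Six3os1 had the lowest Aqp4, at 514 and 515 CPM, and Slc4a4 at 1133 and 1248 CPM. Slc4a4 was highest in the cluster led by 2900052N01Rik and Cldn10, at 1207 and 1431 CPM. Car2 was lowest in the Crym cluster (216 and 230 CPM) and highest in the Cldn10 (409 and 410) and Lgr6 clusters (402 and 416). Kcnj10 was lowest in the Gfap and Crym clusters (177 and 207 CPM, 179 and 184 CPM) and reached 247 and 305 CPM in the cluster led by Lgr6.

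Within clusters, the Slc4a4 ratio was above 1 in all 5, from 1.10 in the Crym cluster to 1.39 in the Gfap cluster. The Kcnj10 ratio was 1.24 in the Lgr6 and 1.28 in the Cldn10 cluster, but 1.03 in the Crym and 0.998 in the cluster led by Slc14a2. Aqp4 ratios within clusters lay between 1.002 and 1.09. The Gfap cluster made up 13.8% of WT and 18.1% of Mut astrocyte-like cells and the Crym cluster 10.5% and 5.89%. With the clusters weighted as in WT, the overall Aqp4 ratio was 1.05 in place of 1.11, that of Slc4a4 1.23 and that of Kcnj10 1.20.

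**Figure D4:**
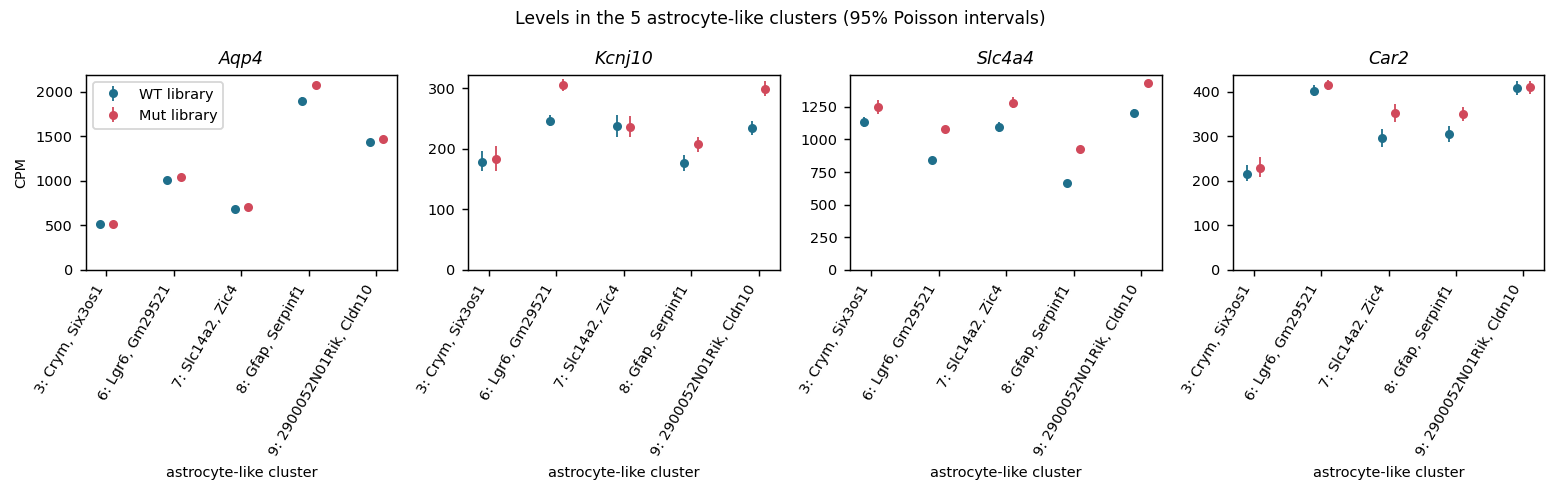
Levels in CPM (y axes) of Aqp4, Kcnj10, Slc4a4 and Car2 in the 5 astrocyte-like clusters (x axes, number and leading genes), WT in blue and Mut in red, with bars for the 95% Poisson interval. The Gfap-led cluster has the highest Aqp4 and the lowest Slc4a4 in both libraries.

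Female and male cells parted most for Aqp4. Female WT astrocyte-like cells held 1439 CPM and male ones 956, a ratio of 1.504 (1.47 to 1.54). In Mut the levels were 1320 and 1187 CPM, a ratio of 1.11 (1.09 to 1.14). The Mut to WT ratio was therefore 0.918 among female cells (0.899 to 0.937), against 1.24 among male cells (1.21 to 1.28). WT female cells were above WT male cells in each of the 5 clusters, from 728 against 624 CPM in the Slc14a2 cluster to 2443 against 1411 in the Gfap cluster. Dividing astroglia-like cells had the same order, with Mut to WT ratios of 0.898 (female) and 1.11 (male), as did mixed cells with 0.830 and 1.10. Radial glia-like cells had the reverse, with 1.67 (1.39 to 2.01) for female and 1.02 (0.798 to 1.30) for male cells. Since the females and males of a library are different animals in unknown number, sex and animal cannot be told apart, and the difference between the sexes was not tested.

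Among the other members, Slc4a4 was above WT in astrocyte-like cells of both sexes, by 1.31 times in female (927 and 1213 CPM) and 1.13 times in male cells (997 and 1123 CPM), and its female ratio is past the fold. Kcnj10 had 1.16 and 1.17, and Car2 1.08 and 1.06. Aqp9 had 1.09 and 1.38, the latter past the fold from 39 and 44 UMIs, with intervals that include 1. Within a library, Car2 of female and male cells did not differ beyond the interval, with ratios of 0.999 (0.955 to 1.04) in WT and 1.02 (0.975 to 1.06) in Mut.

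**Figure D5:**
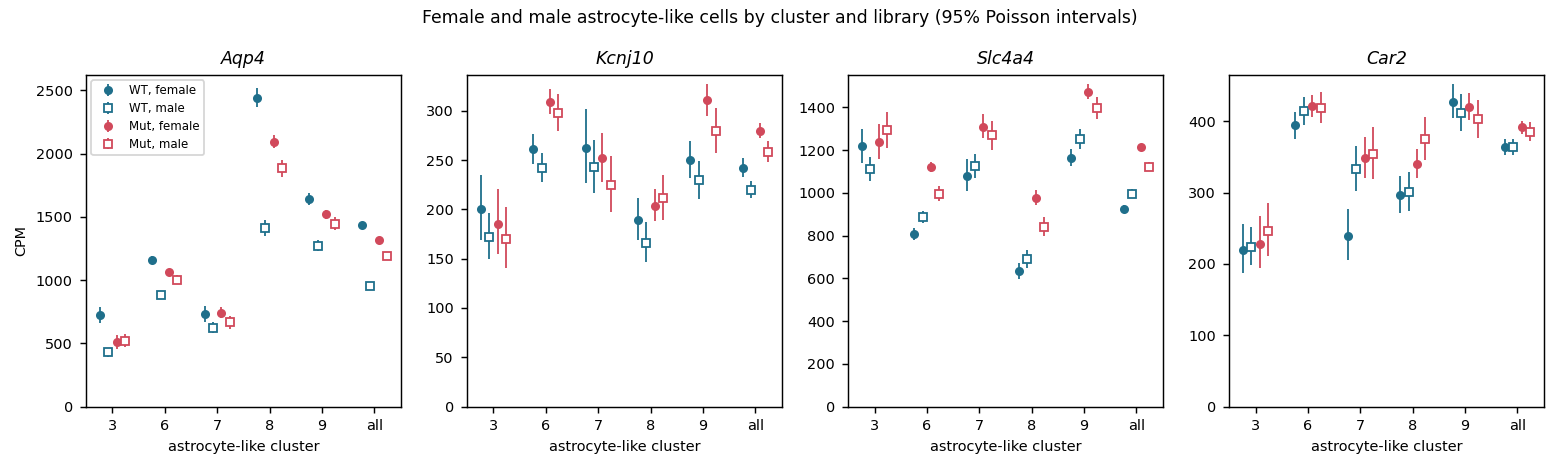
Levels in CPM (y axes) in female (filled circles) and male (open squares) astrocyte-like cells of each cluster and of all 5 together (x axes), WT in blue and Mut in red, with bars for the 95% Poisson interval. Female WT cells stand above male WT cells for Aqp4 in each cluster.

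Genes around the members were read from 7 lists with 52 genes. In astrocyte-like cells 31 of them were measured, 6 were past the fold upward and none downward, and 26 had a ratio above 1, beside 9.85%, 4.99% and 63.5% of all genes. All 7 genes that anchor proteins at the astrocyte endfoot had ratios above 1 and none was past the fold, with Dag1 (dystroglycan) at 244 and 257 CPM and Dtna (dystrobrevin) at 207 and 211. All 5 genes of the MLC1 and GlialCAM complex were also above 1 within the fold, with Mlc1 at 299 and 331 CPM and Hepacam at 215 and 244. The 4 other measured glial potassium channel genes did not share the Kcnj10 ratio of 1.20: Kcnk10 alone had a ratio above 1 (1.10), and Kcnk2 (132 and 127 CPM) and Kcnk1 (59.8 and 58.7 CPM) had ratios of 0.957 and 0.982. Of other bicarbonate transport genes 3 of 7 were past the fold upward. The highest in level were within it, the scaffold gene Slc9a3r1 (270 and 279 CPM) and the exchanger gene Slc4a3 (28.3 and 31.1 CPM). Those past the fold lay at lower levels. Of other carbonic anhydrase genes 3 of 7 were past it upward (Car4, Car5a and Car15, at up to 1.14 CPM), with Car8, a member without enzyme activity, at 299 and 323 CPM and Car5b, a mitochondrial enzyme, at 15 and 17.9. Kcnk10 and the carbonic anhydrase genes past the fold were named after their values were seen. Aqp11 was the only other aquaporin gene measured (10.4 and 12.5 CPM, ratio 1.20), and no other Trpv gene reached 30 UMIs.

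The lining of the ventricles was represented by 11 WT and 21 Mut ependymal cell-like cells. Their Slc4a4 level was 309 CPM in WT (223 to 416) and 153 CPM in Mut (110 to 206), from 43 UMIs each. Aqp4 stood at 93.3 CPM (49.7 to 160) and 167 (123 to 222), and Kcnj10 at 35.9 (11.6 to 83.7) and 53.2 (29.8 to 87.8). The Slc4a4 intervals did not overlap and those of Aqp4 and Kcnj10 did, with so few cells that single cells can set the values.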

How the data were processed

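Single-cell RNA of P5 cortex was measured in 1 WT and 1 Mut library. The authors deposited raw UMI counts per gene and barcode, with every barcode kept. The file headers name Cell Ranger 4, and STAR and the build GRCm38 come from the submitters' processing notes. The other deposited tables, of barcode names and gene identifiers, hold no measurement. The libraries hold 93664707 and 97891513 UMIs. The series' design text names replicates within a sample, but all barcodes of a library carry the same suffix.

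A barcode entered with 1000 or more UMIs, 500 or more genes and no more than 20% mitochondrial UMIs (11024 and 10102). Scrublet in scanpy 1.11.5 scored doublets per library, and those with the highest scores were left out, at a rate of 0.8% per 1000 barcodes (972 and 816). Cells were clustered together on 2000 variable genes without the 9 genes or the pathway lists (30 components, 15 neighbours, Leiden resolution 1). A cluster was named with a marker score of at least 0.4, a lead of 0.06 and 3 markers in at least 10% of cells. Between astrocyte and radial glia no lead was asked: clusters led by radial glia with a smaller lead are called mixed, and those of either kind with a dividing score of at least 0.5 dividing. The astrocyte-like clusters led by Lgr6, Slc14a2 and Gfap had leads over radial glia of only 0.0515, 0.0196 and 0.000966. The mixed cluster leaned to radial glia by 0.0115, so the border between astrocyte-like and mixed cells is narrow. Cells with at least 100 Ttr UMIs and 3 other markers were set apart as choroid plexus. This naming rule was settled after scores had been seen.

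UMIs were summed per library and class. Levels carry exact Poisson, shares exact Clopper-Pearson and ratios exact conditional binomial 95% intervals. A gene was measured with at least 30 UMIs and past the fold when at least 25% higher or 20% lower in Mut; ratios were read in classes with at least 50 cells in both libraries. Free RNA came from barcodes of 10 to 100 UMIs, and its share of a class is the median ratio of unrelated markers' levels in the class to those in free RNA. The ratio script was tested on simulated data. The members and lists were chosen with earlier results of these data known. All 9 members are named, 2 genes per list by mean level (any list with under 3 measured genes in full where measured), and the 3 genes most alike for members with at least 300 UMIs. Some results on single genes are not reported here.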

Additional observations from a re-analysis of the deposited data

Results flagged for a closer look

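The Aqp4 ratio of Mut to WT lay on opposite sides of 1 in the sexes of astrocyte-like cells, at 0.918 from 14882 WT and 22499 Mut UMIs of female cells and 1.24 from 10311 and 10454 UMIs of male cells. Slc4a2 also lay on opposite sides, at 0.979 (female) and 1.03 (male), with intervals that both include 1. Neither difference between the sexes was tested, and the animals of each sex cannot be told apart from it.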

How the results depend on the processing

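In astrocyte-like cells the Aqp4 ratio of 1.11 became 1.04 with at least 2000 UMIs per cell, 1.07 with at most 10% mitochondrial UMIs, 1.19 at Leiden resolution 0.5, 0.918 in female and 1.24 in male cells, 1.07 with TMM scaling of edgeR 4.0.16 and 1.05 with the WT cluster makeup, the last chosen after seeing the data. Kcnj10 became 1.16 in female cells. Slc4a4 became 1.16 at Leiden resolution 0.5, 1.31 in female and 1.13 in male cells, and 1.18 with TMM scaling. The Car2 ratio of 1.07 became 1.004 when single barcodes were named by their markers. It was 1.039 with at least 2000 UMIs per cell and 1.037 with TMM scaling. The causes were not tested. Kcnj10, Slc4a4 and Car2 had ratios above 1 in all 14 alternatives, Aqp4 and Aqp9 in 13 and Slc4a2 in 12. The count of members past the fold, 0 as reported, was 1 at Leiden resolution 0.5 and in male cells (Aqp9, higher in Mut at 1.32 and 1.38), 1 with thinning to 2000 UMIs (Aqp9, lower in Mut at 0.759), 1 in female cells (Slc4a4), and 1 with a minimum of 10 UMIs or none (Car14), and 0 in the other 12. TMM scaling moved the median log2 ratio of all genes from 0.05 to 0.01. No paired analysis was possible because each genotype has 1 library, and for the same reason no replicate could be left out.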
